A study of Mus musculus with 16 samples.

Results

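In all, 10 genes were followed across 16 libraries of RNA from mouse lavage macrophages, namely Cd59a, Adcy4, Arhgap22, Cd101, Acvr1c, Klk8, Gpd1, Wfdc10, Osbpl3 and Stam2. They are autosomal genes that lie off chromosome 8, the chromosome of Tlr3, and they were picked because their counts differed between TLR3-KO and wild-type (WT) libraries. They are 10 of 23159 gene symbols in the count table and 10 of 12455 that passed a filter on low counts and were tested. Every genotype difference below is therefore a description of the values that chose the genes, with a fold change and its standard error (SE) and with no p-value. The rule states no threshold: 63 of 11240 autosomal genes off chromosome 8 were called (adjusted p under 0.05, quasi-likelihood test of edgeR) between control genotypes, and the 10 genes are among them.

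The macrophages came from fluid washed out of the airways, and the samples form 4 groups of 4 libraries each. They are TLR3-KO mice following pneumonia, WT mice following pneumonia, TLR3-KO control mice and WT control mice, and the sample titles call the pneumonia groups injured. TLR3-KO mice lack Toll-like receptor 3, an endosomal receptor for double-stranded RNA. The labels' protocols describe a dose of 500 CFU of the bacterium Klebsiella pneumoniae (30 µl) or of saline given into the lower throat, and the controls carry the treatment label none. The sources used here do not give the strain background, the way the Tlr3 allele was made, the age of the mice or the time after infection. The series title speaks of male mice. No label ties a library to a mouse of its own, so p-values measure the spread between libraries, which may be technical.

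The 10 genes belong to no single pathway. Cd59a encodes a lipid-anchored surface protein that blocks the last step of complement attack, and Cd101 encodes an immunoglobulin-like membrane protein of myeloid and T cells. Adcy4 encodes a membrane adenylyl cyclase that makes cyclic AMP, Arhgap22 a protein that switches off the GTPase Rac, and Acvr1c the type I receptor ALK7 for activin-like ligands. Klk8 is a secreted serine protease, and Wfdc10 belongs to the whey acidic protein domain family, several members of which inhibit proteases. Gpd1 interconverts dihydroxyacetone phosphate and glycerol 3-phosphate in the cytosol, Osbpl3 is an oxysterol-binding protein family member that acts at membrane contacts, and Stam2 is a subunit of the endosomal sorting complex ESCRT-0. Alveolar macrophages, the main resident cell of lavage fluid, clear particles, surfactant lipid and bacteria from the air spaces.

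Total counts per library lay between 29667102 and 59640251. Tlr3 followed the genotype labels, at 0.353 to 0.677 CPM (counts scaled to the library total) in TLR3-KO injured libraries against 2.35 to 4.27 CPM in WT injured libraries, and at 0.274 to 0.717 CPM in TLR3-KO controls against 2.18 to 4.53 CPM in WT controls. Summed over 11 alveolar macrophage markers, libraries of all 4 groups held between 8349 and 12141 CPM. Xist, made from the inactive X chromosome of female cells, was at 42.3 CPM in TLR3-KO control 1, 31.6 CPM in control 2 and 20.3 CPM in control 3, while the other 13 libraries held at most 0.23 CPM. In the same 3 libraries the summed counts of 4 genes of the Y chromosome were 0.382%, 0.582% and 11.7% of the median library, against 85.0% in TLR3-KO control 4. Same-numbered control libraries of the 2 genotypes also departed from their group means together, with correlations of 0.429 to 0.588. Within each genotype, controls 1 and 2 were alike, as were controls 3 and 4, by chi-square per degree of freedom (lower is more alike). In TLR3-KO it was 55.7 and 79.0 for these pairs, against 176 to 303 for the other pairs. In WT it was 10.6 and 79.9, against 128 to 268. Results that rest on controls are therefore given for these subsets as well.

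Cd59a, Adcy4, Arhgap22 and Cd101 passed the threshold between genotypes in both states, and their promoters are shown because these 4 genes were called in the same direction in injured and control libraries. Each sequence runs 5′ to 3′ on the strand of its gene from 250 bases before to 50 bases after the RefSeq transcript start (GRCm38.p6), and capitals mark a match, on either strand, to the interferon-stimulated response element (GAAA, then NN, then GAAA). The windows are chr2:104095551-104095850 (plus strand) for Cd59a, chr14:55784023-55784322 (minus strand) for Adcy4, chr14:33216573-33216872 (plus strand) for Arhgap22 and chr3:101029504-101029803 (minus strand) for Cd101.
Cd59a: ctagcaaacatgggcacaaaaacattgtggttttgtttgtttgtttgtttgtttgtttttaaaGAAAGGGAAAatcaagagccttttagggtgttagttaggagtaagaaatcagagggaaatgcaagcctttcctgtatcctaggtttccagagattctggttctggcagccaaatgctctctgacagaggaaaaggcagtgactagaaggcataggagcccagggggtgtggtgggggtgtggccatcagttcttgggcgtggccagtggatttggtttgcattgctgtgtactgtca
Adcy4: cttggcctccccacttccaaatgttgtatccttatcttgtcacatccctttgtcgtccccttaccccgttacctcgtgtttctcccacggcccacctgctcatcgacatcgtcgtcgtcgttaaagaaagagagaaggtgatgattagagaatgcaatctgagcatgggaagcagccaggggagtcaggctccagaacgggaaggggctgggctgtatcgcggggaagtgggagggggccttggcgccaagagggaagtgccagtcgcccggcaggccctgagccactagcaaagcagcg
Arhgap22: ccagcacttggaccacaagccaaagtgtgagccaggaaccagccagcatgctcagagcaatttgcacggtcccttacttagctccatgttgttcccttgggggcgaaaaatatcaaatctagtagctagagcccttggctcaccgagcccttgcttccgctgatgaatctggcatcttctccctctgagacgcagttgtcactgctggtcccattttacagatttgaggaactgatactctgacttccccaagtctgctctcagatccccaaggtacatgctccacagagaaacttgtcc
Cd101: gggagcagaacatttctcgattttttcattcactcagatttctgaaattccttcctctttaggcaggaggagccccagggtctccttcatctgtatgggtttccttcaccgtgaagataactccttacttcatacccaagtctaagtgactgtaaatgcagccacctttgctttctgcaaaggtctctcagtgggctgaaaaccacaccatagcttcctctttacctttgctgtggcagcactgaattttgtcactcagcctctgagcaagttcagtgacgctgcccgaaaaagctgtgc

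The capitals in the Cd59a sequence were the only match to that element among 10 promoter windows of 9 of the genes, 2 of them belonging to Acvr1c, and 3.44% of 32851 mouse promoter windows of the same length hold a match. The table held no promoter entry for Gpd1. GGGCGG, the GC box, was found in the windows of Acvr1c, Klk8 and Osbpl3, and in 35.7% of all windows. None of the 10 windows held, on either strand, the TATA box TATAAA (13.6% of all windows), the E-box CACGTG (7.15%), the cAMP response element TGACGTCA (1.79%) or a kappa B site of GGGA, then N, then TTTCC (0.411%). These motifs do not overlap one another in the windows shown, and a match is a run of letters, not a bound site. GC content of the 10 windows lay between 45.7% and 79.0%, against a median of 52.7% over all windows, with Cd59a the lowest.

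**Figure D1:**
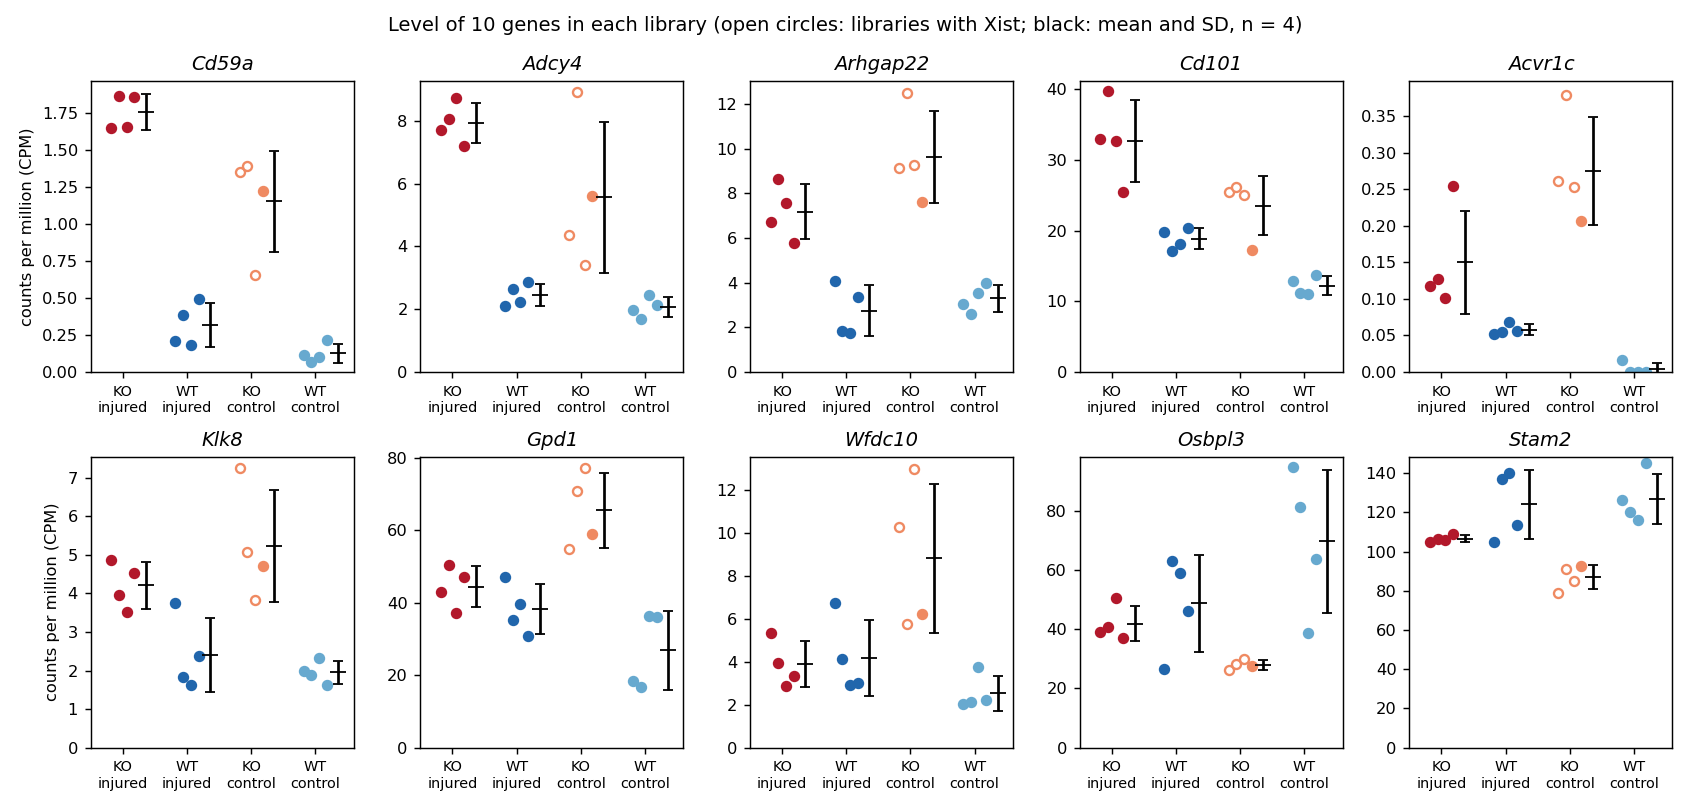
CPM of each of the 10 genes in every library, by group (TLR3-KO injured, WT injured, TLR3-KO control, WT control), with black bars for the mean and SD of 4 libraries and open circles for the 3 TLR3-KO controls that carry Xist. The TLR3-KO controls lie above the WT controls in 8 panels and below them in the panels of Osbpl3 and Stam2.

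Cd59a showed a wide gap between genotypes at a low level. In mm10 it lies on chromosome 2 from 104095801 to 104115354 (plus strand). Injured libraries 1 to 4 held 1.65, 1.86, 1.65 and 1.85 CPM in TLR3-KO, against 0.207, 0.387, 0.183 and 0.491 CPM in WT. Control libraries 1 to 4 held 1.35, 1.39, 0.654 and 1.22 CPM in TLR3-KO, against 0.117, 0.0685, 0.0985 and 0.219 CPM in WT. Every TLR3-KO library lay above every WT library in both states, and the 4 TLR3-KO injured libraries lay close together. The log2 fold change of TLR3-KO against WT was 2.41 (SE 0.36) in injured and 3.13 (SE 0.40) in control libraries. By counts alone, 287 reads in TLR3-KO injured against 56 in WT injured gave a ratio of 5.41 (exact 95% interval 4.05 to 7.33), and 207 reads in TLR3-KO controls against 22 in WT controls gave 9.40 (6.05 to 15.3). These intervals cover counting error only. In bulk RNA such as this, more cells of a type and more RNA per cell cannot be told apart.

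Adcy4 (chromosome 14, 55769057 to 55784095, minus strand) was likewise higher in TLR3-KO in both states. Injured libraries 1 to 4 held 7.69, 8.05, 8.73 and 7.21 CPM in TLR3-KO, against 2.095, 2.65, 2.22 and 2.85 CPM in WT. Among controls the values were 4.36, 8.90, 3.39 and 5.59 CPM in TLR3-KO, against 1.98, 1.69, 2.46 and 2.14 CPM in WT. The genotypes did not overlap, the WT libraries of both states shared a narrow range, and TLR3-KO controls spread from the level of control 3 to that of control 2. In log2 terms TLR3-KO exceeded WT by 1.66 (SE 0.24) in injured and 1.36 (SE 0.24) in control libraries.

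Arhgap22 (chromosome 14, 33214026 to 33369934, plus strand) lies on the same chromosome as Adcy4. In injured libraries 1 to 4 it reached 6.73, 8.65, 7.55 and 5.77 CPM in TLR3-KO, against 4.06, 1.82, 1.76 and 3.36 CPM in WT. In controls it reached 9.15, 12.5, 9.26 and 7.61 CPM in TLR3-KO, against 3.05, 2.60, 3.52 and 4.00 CPM in WT. No WT library reached the lowest TLR3-KO library of its state. The log2 fold changes were 1.35 (SE 0.26) in injured and 1.49 (SE 0.26) in control libraries, so the difference was of like size in the 2 states.

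Cd101 (chromosome 3, 100993529 to 101029556, minus strand) was the most abundant of these 4 genes and had the smallest fold change among them. Injured libraries 1 to 4 held 32.9, 39.7, 32.7 and 25.5 CPM in TLR3-KO, against 19.8, 17.2, 18.1 and 20.4 CPM in WT. Control libraries 1 to 4 held 25.5, 26.2, 25.1 and 17.3 CPM in TLR3-KO, against 12.9, 11.2, 11.1 and 13.7 CPM in WT. In both states the TLR3-KO library closest to WT was number 4, and it still lay above all WT libraries of its state. TLR3-KO exceeded WT by a log2 fold change of 0.76 (SE 0.16) in injured and 0.88 (SE 0.16) in control libraries.

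Acvr1c (chromosome 2, 58267453 to 58357895, minus strand) was almost uncounted outside the TLR3-KO libraries. TLR3-KO injured libraries 1 to 4 held 0.118, 0.127, 0.101 and 0.255 CPM, against 0.0517, 0.0552, 0.0685 and 0.0567 CPM in WT injured libraries. TLR3-KO controls held 0.261, 0.379, 0.253 and 0.207 CPM, against 0.0168 CPM in WT control 1 and 0 in the other 3 WT controls. The ranges did not overlap in either state, but the numbers of reads were small. In controls 50 reads in TLR3-KO stood against 1 read in WT, a ratio of 50.0 (exact 95% interval 8.57 to 2013). In injured libraries 25 reads in TLR3-KO stood against 10 in WT, a ratio of 2.64 (1.22 to 6.15). Both intervals cover counting error only. The fitted log2 fold changes were 1.31 (SE 0.49) in injured and 5.01 (SE 0.64) in control libraries, and the fit for controls depends on the small number added to zero counts. Acvr1c and Cd59a passed the filter on low counts only through TLR3-KO libraries, so they had to differ there.

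Klk8 (chromosome 7, 43797577 to 43803826, plus strand) was higher in TLR3-KO controls, with a smaller gap after pneumonia. Injured libraries 1 to 4 held 4.87, 3.95, 3.51 and 4.52 CPM in TLR3-KO, against 3.75, 1.82, 1.62 and 2.38 CPM in WT. Control libraries 1 to 4 held 7.25, 5.07, 3.84 and 4.71 CPM in TLR3-KO, against 1.98, 1.90, 2.34 and 1.62 CPM in WT. After pneumonia only WT injured 1 reached into the TLR3-KO range. For TLR3-KO against WT the log2 fold change was 0.78 (SE 0.27) in injured libraries, 1.09 without WT injured 1, and 1.34 (SE 0.28) in control libraries.

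For Gpd1 and Wfdc10 the genotypes were apart in controls and overlapped after pneumonia. Gpd1 (chromosome 15, 99717515 to 99725005, plus strand) had the highest level per length of the 10 genes in TLR3-KO controls. In injured libraries 1 to 4 its level was 42.9, 50.5, 37.2 and 47.2 CPM in TLR3-KO, against 47.2, 35.4, 39.6 and 30.8 CPM in WT. Among controls its level was 55.0, 70.9, 77.2 and 58.9 CPM in TLR3-KO, against 18.3, 16.7, 36.5 and 36.2 CPM in WT. WT controls 3 and 4 lay above WT controls 1 and 2, and the means of the injured groups lay between those of the control groups. Gpd1 had a log2 fold change of 0.19 (SE 0.21) in injured and 1.23 (SE 0.22) in control libraries.

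Wfdc10 (chromosome 2, 164656046 to 164657368, plus strand) was counted in injured libraries 1 to 4 at 5.34, 3.95, 2.87 and 3.36 CPM in TLR3-KO, against 6.73, 4.12, 2.92 and 3.02 CPM in WT. In controls its level was 10.3, 5.75, 12.99 and 6.23 CPM in TLR3-KO, against 2.03, 2.15, 3.77 and 2.22 CPM in WT. The TLR3-KO controls fell into a pair of higher libraries (1 and 3) and a pair of lower ones (2 and 4), all above the WT controls, while the injured groups covered nearly the same range. Its log2 fold change was -0.14 (SE 0.33) in injured libraries, 0.19 without WT injured 1, and 1.73 (SE 0.34) in control libraries. Wfdc9 overlaps Wfdc10 on the other strand and held 6 counts over all libraries, and the sources used here do not say whether counting used strand.

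Osbpl3 and Stam2 were the 2 genes that were lower in TLR3-KO controls. Osbpl3 (chromosome 6, 50293330 to 50456201, minus strand) was counted in injured libraries 1 to 4 at 39.1, 40.7, 50.4 and 36.9 CPM in TLR3-KO, against 26.5, 63.1, 59.1 and 46.1 CPM in WT. In controls its level was 26.1, 28.2, 30.0 and 27.4 CPM in TLR3-KO, against 94.7, 81.3, 38.9 and 63.7 CPM in WT. The TLR3-KO controls were tight and the WT controls were wide, with WT control 3 closest to TLR3-KO, and WT injured 1 lay below every TLR3-KO injured library. The log2 fold change was -0.25 (SE 0.26) in injured and -1.41 (SE 0.27) in control libraries.

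Stam2 (chromosome 2, 52691664 to 52742281, minus strand) showed the smallest fold change of the 10 genes in controls and the smallest SE. TLR3-KO injured libraries 1 to 4 held 105, 106, 106 and 109 CPM, against 105, 137, 140 and 114 CPM in WT injured libraries. TLR3-KO controls held 79.1, 91.0, 84.9 and 92.4 CPM, against 126, 120, 116 and 145 CPM in WT controls. The control genotypes did not overlap, and after pneumonia WT injured 1 alone lay within the TLR3-KO range. Against WT, TLR3-KO had a log2 fold change of -0.25 (SE 0.09) in injured and -0.62 (SE 0.09) in control libraries. WT injured 1 was the highest or the lowest of the WT injured libraries in 8 of the 10 genes, all but Cd59a and Cd101.

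Between control genotypes all 10 genes passed the threshold, 8 higher and 2 lower in TLR3-KO, beside 0.658% of all genes tested (0.249% higher and 0.409% lower). No gene of the 10 overlapped between the control genotypes, beside 8.13% of all genes (5.92% higher and 2.22% lower). After pneumonia 4 of the 10 passed, all higher in TLR3-KO, beside 0.602% of all genes, and 5 did not overlap, beside 12.3% (9.14% higher and 3.18% lower). These counts use the contrasts that chose the genes and carry no weight as evidence. The median log2 fold change over the 10 genes was 0.77 in injured and 1.35 in control libraries, beside -0.01 and 0.04 over all genes. Among 8 autosomal genes off chromosome 8 that passed in both states were Cd59a, Adcy4, Arhgap22 and Cd101, and the other 4 were Wdfy1 on chromosome 1, Dbp and Dhcr7 on chromosome 7 and Gm6498 on chromosome 14. Of these, Wdfy1, an endosomal adaptor of TLR3 and TLR4 signalling, averaged 12.5 CPM in TLR3-KO injured against 67.3 CPM in WT injured libraries, and 13.8 CPM in TLR3-KO against 69.2 CPM in WT controls. With the replicate number as a block, 2 of the 10 genes passed in injured libraries (Adcy4 and Cd59a) and 7 in controls, where Adcy4, Arhgap22 and Osbpl3 did not. Over all genes, 31 passed between control genotypes with the block and 82 without it.

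**Figure D2:**
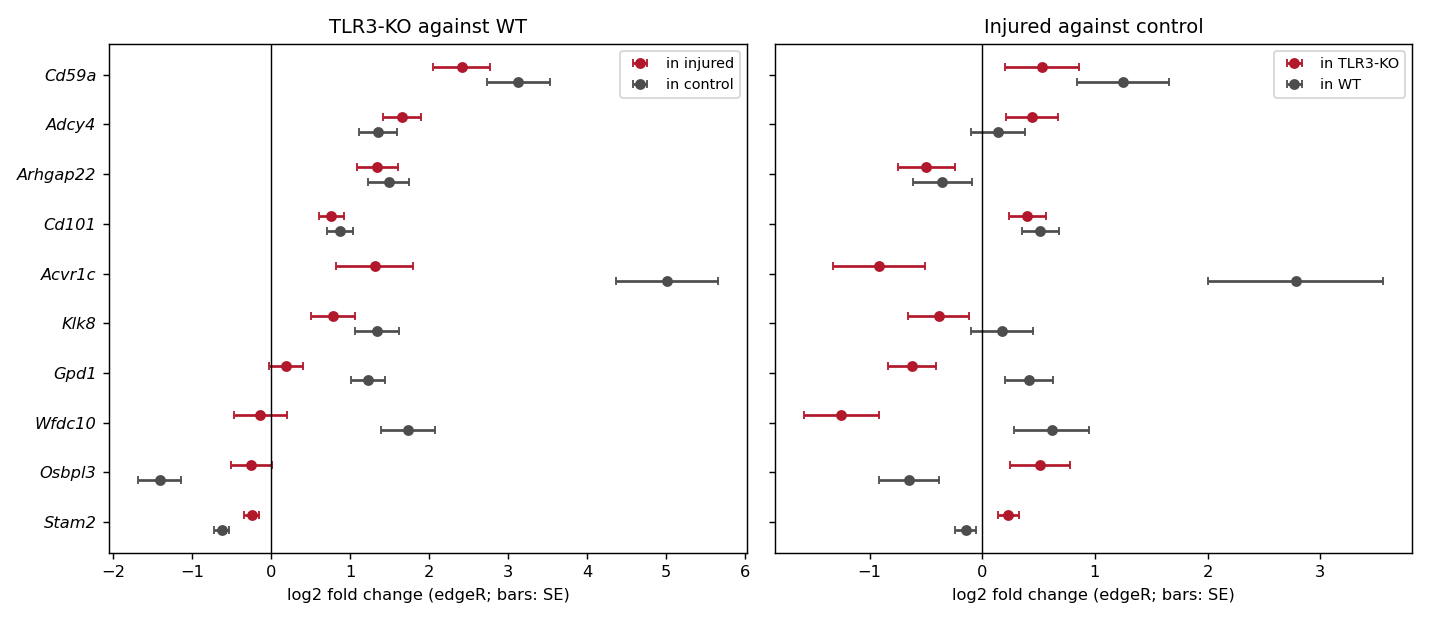
Fitted log2 fold changes (edgeR) of the 10 genes with bars of 1 SE, for TLR3-KO against WT (left panel, injured and control libraries) and for injured against control (right panel, TLR3-KO and WT). The genotype differences of Cd59a, Adcy4, Arhgap22 and Cd101 lie on the same side and near each other in the 2 states, while those of Gpd1, Wfdc10 and Osbpl3 lie near 0 in injured libraries only.

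The differences between control genotypes kept their direction, for all 10 genes, under every choice of control libraries tried, while their size and calls moved. The kept direction carries no weight as evidence. No gene of the 10 overlapped between the control genotypes, which fixes the direction for any subset of these libraries. TLR3-KO control 4, the only TLR3-KO control without Xist, lay outside the range of the WT controls for all 10 genes, as did 57.8% of all genes, and the choice of genes that do not overlap fixes this. Its level was 9.68 times the WT control mean for Cd59a, 2.70 times for Adcy4, 2.31 times for Arhgap22 and 1.42 times for Cd101. With that library as the only TLR3-KO control, the log2 fold change was 3.10 (SE 0.50) for Cd59a, 1.03 (SE 0.38) for Arhgap22, 1.11 (SE 0.45) for Wfdc10 and 0.32 (SE 0.21) for Cd101. A single library has no spread of its own, so these SEs assume that it varies like the other groups. In another fit the Xist-positive share of each library was a covariate. It was the shortfall of the Y-gene sum from its median over the other libraries, in libraries with Xist above 1 CPM, and 0 elsewhere. Its values were 99.6%, 99.4% and 88.3% in TLR3-KO controls 1 to 3, so this fit nearly repeats the one with control 4 alone. With this covariate 0 of 10 passed, beside 5 of all genes, and the values were 3.03 (SE 0.52) for Cd59a, 1.03 (SE 0.36) for Arhgap22, 1.18 (SE 0.48) for Wfdc10 and 0.32 (SE 0.20) for Cd101. Every gene that was higher in TLR3-KO controls had a smaller log2 fold change in both of these fits than with all 4 libraries. Klk8, for example, had 1.07 with control 4 alone and 1.03 with the covariate, against 1.34. Osbpl3 and Stam2, the genes lower in TLR3-KO controls, had slightly larger differences in both fits. For Osbpl3 they were -1.55 and -1.53, against -1.41 with all 4 libraries. The injured libraries held at most 0.139 CPM of Xist. Libraries with Xist are all TLR3-KO controls, so for the controls the part of Xist-positive RNA and the part of genotype cannot be told apart beyond these values.

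Within controls 1 and 2, 9 of the 10 genes passed, and within controls 3 and 4, 0 of 10. Over all genes these fits called 237 and 20, against 82 with all 4 libraries per group. The subsets also differ in Xist, which both TLR3-KO libraries carry in controls 1 and 2, and only control 3 carries in controls 3 and 4. The part of the subset and the part of Xist-positive RNA in the shifts below cannot be told apart. Gpd1 had a log2 fold change of 1.74 (SE 0.20) within controls 1 and 2 and 0.84 (SE 0.21) within controls 3 and 4. Osbpl3 had -1.79 (SE 0.30) within controls 1 and 2 and -0.90 (SE 0.32) within controls 3 and 4. For Adcy4 the values were 1.74 (SE 0.28) and 0.88 (SE 0.25), for Cd59a 3.71 (SE 0.49) and 2.47 (SE 0.55), for Arhgap22 1.83 (SE 0.37) and 1.10 (SE 0.37), and for Acvr1c 4.63 (SE 0.83) and 6.27 (SE 1.19). Stam2 differed by the same -0.63 in both subsets. Leaving out WT control 1 or WT control 2 left 3 of the 10 genes past the threshold, namely Cd59a, Acvr1c and Stam2. Over all genes, 18 passed without WT control 1 and 17 without WT control 2.

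**Figure D3:**
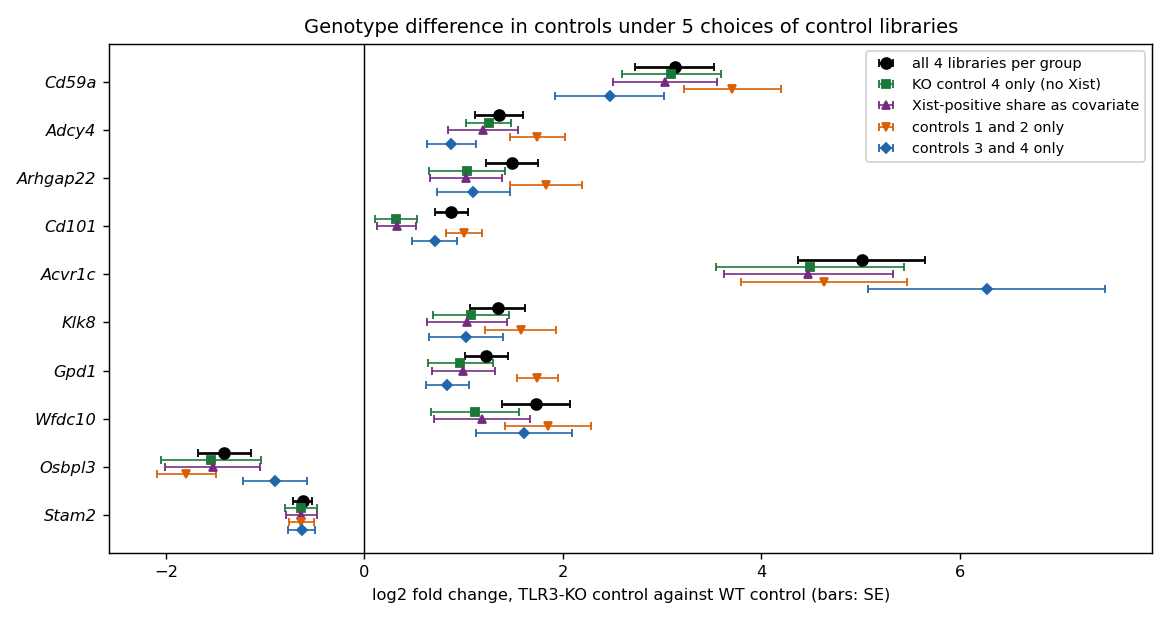
Log2 fold change of TLR3-KO control against WT control for the 10 genes (bars, SE) with all 4 libraries per group, with TLR3-KO control 4 as the only TLR3-KO control, with the Xist-positive share as a covariate, and within controls 1 and 2 or 3 and 4. All points of a gene lie on the same side of 0, as genes without overlap between control genotypes must for any subset of libraries. Those of Cd101 lie nearest 0 when the libraries with Xist are left out or modelled.

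The response to pneumonia was then compared within each genotype. These contrasts share their control libraries with the contrast that chose the genes, so a gene picked for high TLR3-KO controls or low WT controls is not free to move either way, and the 2 responses are given side by side without a test of their likeness. In TLR3-KO, Xist was present in 3 of the 4 controls and in no injured library above 0.139 CPM, so pneumonia and the loss of Xist-positive RNA cannot be told apart there beyond fits that model it. With the Xist-positive share as a covariate, the log2 fold change of injured against control in TLR3-KO was -0.03 (SE 0.38) for Arhgap22 in place of -0.50, 0.95 (SE 0.22) for Cd101 in place of 0.40, and -0.38 (SE 0.64) for Acvr1c in place of -0.92, and none of the 10 passed (lowest edgeR adjusted p = 0.100). In TLR3-KO, 0 of 10 genes passed an adjusted p of 0.05 in edgeR, beside 1.09% of all genes, and 5 of the 10 had an unadjusted p under 0.05, beside 23.9% of all genes. DESeq2 called Wfdc10 alone, beside 8.28% of all genes, and limma voom called 0 of 10, beside 0.851%. Injured and control TLR3-KO libraries did not overlap for 5 of the 10 genes, 3 higher and 2 lower, beside 14.3% of all genes (11.2% higher and 3.05% lower). In WT, 0 of 10 passed in edgeR, DESeq2 and voom, beside 0%, 1.45% and 0% of all genes, and 4 had an unadjusted p under 0.05, beside 10.7%. The WT groups did not overlap for 2 genes, Acvr1c and Cd101, both higher, beside 4.51% of all genes (3.83% higher and 0.682% lower).

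Wfdc10 came closest to the threshold. It averaged 3.88 ± 1.07 CPM in TLR3-KO injured against 8.81 ± 3.45 CPM in TLR3-KO control libraries, and 4.20 ± 1.77 CPM in WT injured against 2.54 ± 0.82 CPM in WT control libraries (SD, n = 4 each). The log2 fold change of injured against control was -1.25 (SE 0.33, edgeR adjusted p = 0.0666) in TLR3-KO and 0.62 (SE 0.34, adjusted p = 0.526) in WT. All TLR3-KO injured libraries lay below all TLR3-KO controls, while the WT groups overlapped. In TLR3-KO it passed in 3 of 20 other fits. Without TLR3-KO control 2 the value in TLR3-KO was -1.41 (edgeR adjusted p = 0.0293), and DESeq2 gave -1.25 (adjusted p = 0.00842). With TLR3-KO control 4 as the only TLR3-KO control the value was -0.63 (SE 0.46), and with the Xist-positive share as a covariate -0.70 (SE 0.49, edgeR adjusted p = 0.358). The gene was chosen through these same controls, so these p-values are descriptions.

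Gpd1 averaged 44.5 ± 5.76 CPM in TLR3-KO injured against 65.5 ± 10.3 CPM in TLR3-KO control libraries, and 38.2 ± 6.97 CPM in WT injured against 26.9 ± 10.9 CPM in WT control libraries (SD, n = 4 each). Its log2 fold change was -0.62 (SE 0.21, edgeR adjusted p = 0.115) in TLR3-KO and 0.41 (SE 0.21, adjusted p = 0.508) in WT. The TLR3-KO value was -0.61 (edgeR adjusted p = 0.105) with controls 1 and 2 alone and -0.63 (edgeR adjusted p = 0.0201) with controls 3 and 4 alone. Between these subsets the size was nearly the same and the call was not. It was smaller with TLR3-KO control 4 as the only TLR3-KO control, at -0.36 (SE 0.34). With the Xist-positive share as a covariate it was -0.39 (SE 0.33, edgeR adjusted p = 0.438). The WT value was 0.94 (edgeR adjusted p = 0.00974) with controls 1 and 2 alone and 0.03 (adjusted p = 0.966) with controls 3 and 4 alone. Gpd1 passed in 1 of 20 other fits in TLR3-KO and in 1 of 18 in WT.

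Osbpl3 averaged 41.8 ± 5.92 CPM in TLR3-KO injured against 27.9 ± 1.63 CPM in TLR3-KO control libraries, without overlap, and 48.7 ± 16.5 CPM in WT injured against 69.7 ± 24.1 CPM in WT control libraries, with overlap (SD, n = 4 each). Its log2 fold change was 0.51 (SE 0.26, edgeR adjusted p = 0.244) in TLR3-KO and -0.65 (SE 0.26, adjusted p = 0.402) in WT. There controls 1 and 2 alone gave -1.04 (edgeR adjusted p = 0.0203) and controls 3 and 4 alone -0.11 (adjusted p = 0.902). Osbpl3 passed in 1 of 18 other fits in WT. Stam2 had 0.23 (SE 0.09, edgeR adjusted p = 0.161) in TLR3-KO, also without overlap, and -0.15 (SE 0.09, adjusted p = 0.578) in WT.

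For Cd59a, Adcy4, Arhgap22 and Cd101 the 2 responses had the same sign within each gene. Cd59a had log2 fold changes of 0.53 (SE 0.33) in TLR3-KO and 1.25 (SE 0.41) in WT. Cd101 had 0.40 (SE 0.16) in TLR3-KO and 0.51 (SE 0.16) in WT, where its injured and control libraries did not overlap. Arhgap22 had -0.50 (SE 0.25) in TLR3-KO and -0.35 (SE 0.26) in WT, and Adcy4 had 0.44 (SE 0.23) in TLR3-KO and 0.14 (SE 0.24) in WT. None of these values passed in edgeR (adjusted p between 0.161 and 0.856). Leaving out TLR3-KO control 2, the library with the highest Adcy4 level, gave Adcy4 a value of 0.78 in TLR3-KO (edgeR adjusted p = 0.0284). Adcy4 passed in 2 of 20 other fits in TLR3-KO.

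Acvr1c had few reads, with 25 in TLR3-KO injured against 50 in TLR3-KO control libraries (ratio 0.555, exact 95% interval 0.329 to 0.915) and 10 in WT injured against 1 in WT control libraries (10.5, 1.497 to 457). These intervals cover counting error only, not the spread between libraries. The fitted log2 fold change was -0.92 (SE 0.41, edgeR adjusted p = 0.190) in TLR3-KO, with overlap, and 2.78 (SE 0.78, adjusted p = 0.239) in WT. Klk8 had -0.39 (SE 0.27) in TLR3-KO and 0.17 (SE 0.28) in WT. The difference of the 2 responses, TLR3-KO minus WT, was -3.70 (SE 0.88) for Acvr1c, -1.87 (SE 0.47) for Wfdc10, -1.04 (SE 0.30) for Gpd1, 1.16 (SE 0.37) for Osbpl3 and 0.38 (SE 0.13) for Stam2. It was smaller than its SE for Adcy4 (0.30, SE 0.34), Arhgap22 (-0.14, SE 0.36) and Cd101 (-0.11, SE 0.23), and larger than its SE for Cd59a (-0.72, SE 0.52) and Klk8 (-0.56, SE 0.39). None of the 10 differences passed in edgeR, as none of all genes did (0%), 5 had an unadjusted p under 0.05, beside 17.7% of all genes, DESeq2 called Wfdc10 alone, beside 0.787% of all genes, and limma voom called 0. This difference is built from the contrasts that chose the genes and is given as a description.

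The surroundings of each gene were examined next, since none of the selecting values used them. Within 1 Mb of the 10 genes 202 other genes were tested, of which 1 passed between genotypes in injured libraries (0.495%) and 2 in controls (0.99%), beside 0.602% and 0.658% of all genes. Near Gpd1, 0.123 Mb away, Aqp5, a water channel of alveolar epithelium, averaged 2.61 ± 0.91 CPM in TLR3-KO injured against 0.531 ± 0.192 CPM in WT injured libraries, mean with SD of 4 (log2 fold change 2.27, SE 0.45, edgeR adjusted p = 0.035). In controls Slc7a8, 0.987 Mb from Adcy4, had a log2 fold change of -0.87 (SE 0.17), and Arl5a, 0.267 Mb from Stam2, had -0.74 (SE 0.16). Within 5 Mb, 2 of 651 genes passed in injured libraries (0.307%) and 3 in controls (0.461%), the added gene being Dbp, a clock output factor 1.90 Mb from Klk8, at 1.22 (SE 0.23) and 1.76 (SE 0.23).

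None of the nearest tested genes on either side of each gene passed the threshold between genotypes, beside 0.602% of all genes in injured and 0.658% in control libraries. Of these nearest genes 3, Ltb4r1, Mapk8 and Ptgfrn, did not overlap between control genotypes and were higher in TLR3-KO. Over all genes 8.13% did not overlap there (5.92% higher), and whether the nearest genes differ from that share was not tested. Ltb4r1, a leukotriene B4 receptor gene that ends 0.563 kb from Adcy4, had a log2 fold change of 0.29 (SE 0.37) in injured and 1.37 (SE 0.41) in control libraries, on a mean of 0.696 CPM. Adcy4 itself had 1.66 and 1.36, and whether the 2 genes share a difference was not tested. Ripk3, 0.9 kb beyond the other end of Adcy4, had 0.25 (SE 0.13) and 0.37 (SE 0.13). Mapk8, which encodes the kinase JNK1 and lies 7.96 kb from Arhgap22, had 0.04 (SE 0.25) in injured and 0.48 (SE 0.24) in control libraries. Acvr1, which encodes a related receptor 30.7 kb from Acvr1c, had 0.24 (SE 0.18) in injured and -0.06 (SE 0.18) in control libraries. Ptgfrn, 10.7 kb from Cd101 and a relative in the immunoglobulin superfamily, had 0.03 (SE 0.15) in injured and 0.45 (SE 0.15) in control libraries. Klk9, 0.82 kb from Klk8, had 0.43 (SE 0.69) and 0.23 (SE 0.65) on a mean of 0.29 CPM. Fbxo3, 32.6 kb from Cd59a, had 0.19 (SE 0.12) and -0.15 (SE 0.12). A p above the threshold does not show that these genes were equal between genotypes.

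**Figure D4:**
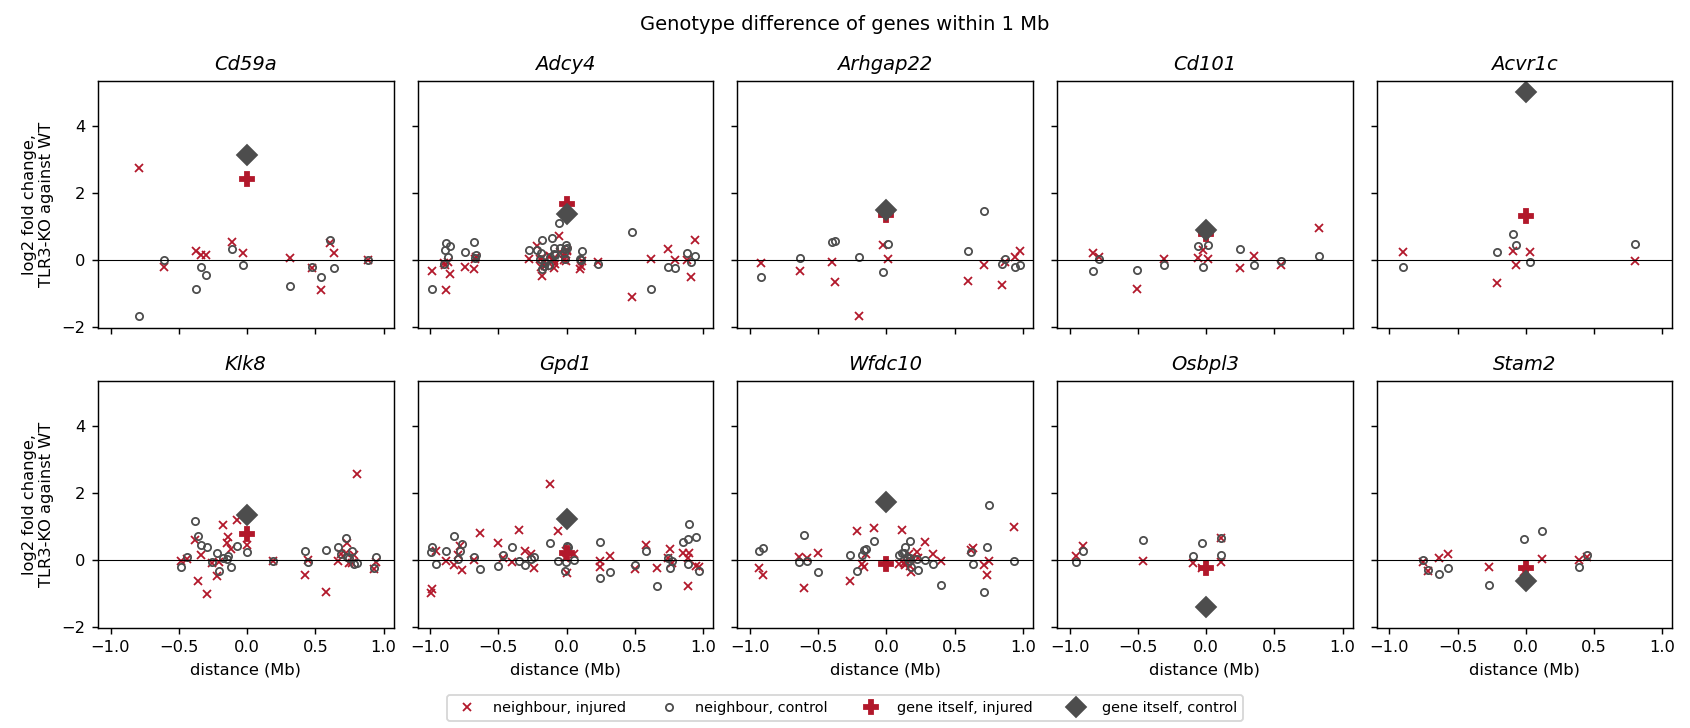
Log2 fold change of TLR3-KO against WT for the tested genes within 1 Mb of each of the 10 genes, plotted by distance in Mb, in injured (crosses) and control (circles) libraries, with the gene itself at 0 as filled symbols. Most neighbours lie between -1 and 1, and the filled symbols of Cd59a, Adcy4 and Arhgap22 lie above all or nearly all of their neighbours.

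Relatives of the 10 genes, in lists drawn up with earlier results of these data known, mostly did not pass. Of 5 tested adenylyl cyclase genes Adcy4 alone passed between genotypes, in both states, and so did Arhgap22 alone of 12 RhoGAP genes and Cd59a alone of 5 complement regulator genes. Of 17 receptors and SMAD proteins of the activin, TGF-beta and BMP pathways Acvr1c alone passed, in controls. Klk8 of 4 kallikreins and Wfdc10 of 3 genes with whey acidic protein domains were likewise the only ones, in controls. Of 9 oxysterol-binding protein genes, 2 were lower in TLR3-KO controls, Osbpl3 and Osbpl8, with Osbpl8 at 155 ± 28.7 CPM in TLR3-KO against 273 ± 59.4 CPM in WT (SD, n = 4 each; log2 fold change -0.90, SE 0.19, edgeR adjusted p = 0.0458). Of 11 genes of ESCRT-0 and ESCRT-I, Stam2 was lower in TLR3-KO controls and Vps37a, which lies on chromosome 8, was lower in TLR3-KO injured libraries (-0.59, SE 0.12, edgeR adjusted p = 0.035). Of 11 genes of glycerol 3-phosphate metabolism Gpd1 passed between control genotypes. Gpam, which starts glycerolipid synthesis from glycerol 3-phosphate, alone of the 11 passed between injured and control TLR3-KO libraries, beside 1.09% of all genes. Gpam averaged 11.3 ± 2.79 CPM in injured against 5.73 ± 1.17 CPM in control libraries (SD, n = 4 each). The log2 fold change was 0.92 (SE 0.18, edgeR adjusted p = 0.0366). Most of these controls carry Xist, so pneumonia and the loss of Xist-positive RNA cannot be told apart here.

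Markers of other cells moved with some of these comparisons. Over 15 markers of alveolar and airway epithelium the summed level was 156 to 216 CPM in TLR3-KO injured against 93.2 to 125 CPM in WT injured libraries, and 143 to 177 CPM in TLR3-KO against 85.3 to 160 CPM in WT controls, with none of the 15 at 0 in any group. Of the 15, 11 had a positive log2 fold change between injured genotypes. Sftpb, Aqp5, Sftpd and Sftpa1 were called higher in TLR3-KO injured libraries. Scgb1a1, an airway marker, was lower there, at 1.48 to 2.87 CPM against 4.06 to 7.43 CPM in WT injured libraries. Over 5 adipocyte markers, nearly all from Cidec, the summed level was 206 to 225 CPM in TLR3-KO injured against 126 to 261 CPM in WT injured libraries, and 144 to 265 CPM in TLR3-KO against 99.6 to 136 CPM in WT controls, with Lep and Cfd at 0 and Adipoq at most at 0.046 CPM. Over 10 endothelial markers, mostly Vwf, it was 52.0 to 79.4 CPM in TLR3-KO injured against 43.9 to 88.6 CPM in WT injured libraries, and 32.8 to 64.1 CPM in TLR3-KO against 43.2 to 85.7 CPM in WT controls, with Emcn at 0 throughout. Over 12 neutrophil markers it was 117 to 203 CPM in TLR3-KO injured, 82.7 to 290 CPM in WT injured, 63.8 to 98.5 CPM in TLR3-KO control and 47.5 to 84.7 CPM in WT control libraries, with Elane at 0 throughout. Mmp8, a neutrophil collagenase on that list, was called higher in TLR3-KO injured libraries, at 47.3 ± 5.48 CPM against 22.1 ± 3.30 CPM in WT injured libraries, mean with SD of 4 (log2 fold change 1.07, SE 0.21, edgeR adjusted p = 0.035). Of the 8 neutrophil markers tested, 4 had a positive log2 fold change between injured genotypes, and the median was -0.01. Over 7 erythroid markers the summed level was 75.0 to 204 CPM in TLR3-KO injured against 340 to 722 CPM in WT injured libraries, without overlap, and 42.2 to 509 CPM in TLR3-KO against 11.8 to 157 CPM in WT controls, with Hba-a1 at 0 in every group and no marker called. The WT injured libraries thus lay above all WT controls in this sum. T cell markers (10) summed to 2.85 to 6.49 CPM in TLR3-KO injured against 4.801 to 8.12 CPM in WT injured libraries, and 2.80 to 16.6 CPM in TLR3-KO against 2.35 to 9.78 CPM in WT controls. B cell markers (6) summed to 5.90 to 10.7 CPM in TLR3-KO injured against 1.12 to 21.5 CPM in WT injured libraries, and 2.78 to 44.6 CPM in TLR3-KO against 0.457 to 25.7 CPM in WT controls. The part of these cells in the levels of the 10 genes was not tested.

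The levels of the genes were also compared per length, in TPM (counts per exon length, scaled to the library), from GENCODE M21 exon lengths. In TLR3-KO controls the order ran from Gpd1 (64.9 ± 10.4 TPM) and Wfdc10 (55.8 ± 19.99 TPM) through Stam2 (42.5 ± 4.16 TPM) and Cd101 (20.7 ± 3.94 TPM) to Klk8, Osbpl3, Arhgap22, Adcy4, Cd59a and Acvr1c (0.0873 ± 0.0269 TPM). In WT controls Stam2 came first (65.5 ± 8.27 TPM), followed by Gpd1 (28.0 ± 10.8 TPM), Osbpl3 (24.1 ± 8.90 TPM) and Wfdc10 (17.0 ± 4.67 TPM), where each ± is the SD of 4 libraries. Gpd1 and Wfdc10 in TLR3-KO controls, and Gpd1 and Osbpl3 in WT controls, did not differ beyond their spread. Adcy4, Cd59a and Acvr1c, in this order, held the last 3 places in all 4 groups.

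Across the 16 libraries the levels of several of the genes moved together, as genes chosen by the same contrast must. The highest Pearson correlation of log2 CPM within the 10 was that of Adcy4 and Cd59a (r = 0.93) and the lowest that of Klk8 and Stam2 (r = -0.91). Over all tested genes, the gene most like Cd59a was Adcy4, that most like Adcy4 was Mthfd1l (r = 0.94), that most like Cd101 was Gtf2ird1 (r = 0.94) and that most like Arhgap22 was Maz (r = 0.90). Klk8 was most like Atp5d (r = 0.94), Gpd1 most like Rmnd5b (r = 0.91), Wfdc10 most like Mgst3 (r = 0.94) and Acvr1c most like Cry2 (r = 0.89). Osbpl3 was most like Plaa (r = 0.95) and Stam2 most like Kpna4 (r = 0.95). Mthfd1l, for example, was counted at 5.89 to 8.14 CPM in TLR3-KO injured against 2.56 to 4.27 CPM in WT injured libraries, and at 4.55 to 7.98 CPM in TLR3-KO against 2.65 to 3.76 CPM in WT controls. The points share genotype, state and library, so these correlations describe the libraries at hand.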

How the data were processed

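Polyadenylated RNA of lavage macrophages was sequenced in 16 libraries, per the labels' protocols as paired reads of 50 bases from TruSeq mRNA libraries. The submitters' processing notes name the mm10 build and the tools FastQC 0.11.3, TopHat2 2.0.13, Bowtie2 2.2.1, Cufflinks and Cuffdiff 2.1.1. The table deposited by the authors holds whole-number counts per gene symbol without normalization, made with HTSeq as its name states; the sources used here give neither its annotation nor its strand setting, so genes that overlap on opposite strands (Acvr1c, Wfdc10, Klk8, Arhgap22 and Gpd1 each overlap such a gene) are uncertain. The series text counts 15 samples and the table holds 16, which all matched a title.

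The 10 genes, the lists of relatives and markers and the tests were chosen with earlier results of these data known. Genes were kept by filterByExpr (minimum count 10, 4 groups), scaled by TMM, with factors between 0.896 and 1.07. The fit was edgeR 4.0.16 under R 4.3.3, a robust quasi-likelihood model with 1 coefficient per group, and the biological coefficient of variation was 0.238. Benjamini-Hochberg adjustment ran over all 12455 genes at a threshold of 0.05, and the SE is the log2 fold change divided by the square root of F. CPM uses raw totals, and TPM was computed with GENCODE M21 exon lengths (22680 of 23159 symbols had a position, 1902 through an older symbol). Promoter windows came from RefSeq (GRCm38.p6). Named genes were the 10 genes, the nearest tested gene on each side, called neighbours, the most alike gene, up to 4 genes of each list and genes off chromosome 8 called in both states; Tlr3, Xist and Y genes checked the labels. The nearest genes are described for 7 ends of 6 of the genes, and the names Elane, Lep, Cfd, Adipoq, Emcn, Hba-a1 and Scgb1a1 are marker checks.

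Within groups no library was a copy of another (chi-square per degree of freedom 8.04 to 302.8). Replicate numbers come from the titles. Same-numbered libraries deviated together between control genotypes (correlations 0.429 to 0.588, over 0.1 for all 4 pairs), so the numbers were taken to pair the libraries and the fit with a replicate block is given beside the other. In injured libraries the correlations were -0.295 to 0.0777, and for pneumonia -0.0476 to 0.328 in TLR3-KO and -0.258 to -0.121 in WT. Counting intervals are exact 95% intervals. Other fits used DESeq2 1.42.0, limma voom (3.58.1), RLE size factors, other filters, 2-group fits, the block, each library left out, other sets of controls, an Xist covariate and a non-robust fit. The model was also run on simulated counts of independent libraries, without Xist-positive libraries or alike controls, so that run does not bear on either.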

Additional observations from a re-analysis of the deposited data

Results flagged for a closer look

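Within the 40 groups of 4 libraries (10 genes in 4 groups), 4 held a library whose gap to its nearest neighbour passed Dixon's 95% critical value, and chance alone gives such a gap in about 1 of 20 groups. Cd101 was lowest in TLR3-KO control 4, at 17.3 CPM, the TLR3-KO control without Xist. Acvr1c was highest in TLR3-KO injured 4, at 0.255 CPM, and highest in WT control 1, at 0.0168 CPM, which is a single read beside 3 libraries with none. Wfdc10 was highest in WT control 3, at 3.77 CPM, still below every TLR3-KO control.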

How the results depend on the processing

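Between control genotypes 10 of the 10 genes passed. The count was 2 (of 9 tested) when only the 2 groups were fitted, 1 with TLR3-KO control 4 as the only TLR3-KO control (a lone library, assumed to vary like the other groups), 0 with the Xist-positive share as a covariate and 0 with controls 3 and 4 alone (the last chosen after seeing the data), and 3 to 10 with single libraries left out, 3 of them without WT control 1 or 2. DESeq2 called 9, with no adjusted p for Acvr1c, and the stricter filter called all 7 it tested. In injured libraries 4 passed, 2 of 7 tested under the filter of 5 CPM in 3 libraries, and 2 to 4 with single libraries left out. With the replicate block the count was 7 in controls and 2 in injured libraries, and the block changed no other call of the 10 genes. Calls over all genes between control genotypes were 82 as reported, 10 with only the 2 groups and 5 with the covariate. They were 20 with controls 3 and 4 alone, 31 with the block and 17 to 466 with single libraries left out.

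For pneumonia in TLR3-KO the count was 0, against 1 in DESeq2, 4 with controls 3 and 4 alone (Adcy4, Cd101, Gpd1 and Wfdc10) and 0 to 2 with single libraries left out. In WT it was 0, against 2 with controls 1 and 2 alone, and 0 to 0 with single libraries left out. For the difference of the responses it was 0, against 1 in DESeq2. The share of called neighbours in controls was 0.99% within 1 Mb and 0.461% within 5 Mb. Among all genes, calls ran from 5 to 781 between control genotypes (82 as reported), 16 to 444 between injured genotypes (75), 0 to 4108 for pneumonia in TLR3-KO (136), and 0 to 1631 in WT (0). No genotype difference in controls changed sign under any alternative, which the lack of overlap between control genotypes fixes for fits on fewer libraries. Wfdc10 changed sign once in injured libraries. Klk8 in WT pneumonia ran from -0.13, reversed without WT injured 1, to 0.33 with single libraries left out. Apart from fewer libraries or genes in a fit, the cause of these changes was not tested. Depth limits Acvr1c and Cd59a most, with 1 and 22 reads over the WT controls.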
